A study of Mus musculus with 7 samples.

Results

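The data described here are the reads of 10 Krüppel-like factor genes, Klf2, Klf3, Klf4, Klf5, Klf6, Klf7, Klf9, Klf10, Klf13 and Klf15, among the 18468 genes of a count table from C3H10T1/2 cells. These genes were picked by name with their difference between purmorphamine and DMSO already known, Klf4 for its large increase and the other 9 as its paralogues. Their differences between the groups are therefore given as a description. Where an adjusted p or a call is given for them, it only places the gene beside the threshold and is not used as a test. C3H10T1/2 is a mouse line of mesenchymal origin, so the libraries stand for 1 cell line. All cells had 12 h without serum before the treatment, which lasted 48 h and was also without serum. Of the 7 libraries, 4 (replicates 5 to 8) were from cells given 2 μM purmorphamine, a small-molecule agonist of the Hedgehog signal transducer Smo, and 3 (replicates 2 to 4) from cells given 0.02% DMSO as vehicle. No virus and no genetic change was used in these groups.

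Krüppel-like factors are transcription factors that bind CACCC and GC-rich elements through C2H2 zinc fingers near the C terminus. Their N-terminal regions differ and recruit different partners, so that some members mainly activate and others repress, through the corepressor CtBP or through Sin3a and its histone deacetylases. The closely related Sp factors bind similar elements. In mesenchymal precursors several members act on the adipocyte program. Klf4, Klf5, Klf6, Klf9, Klf13 and Klf15 are known to promote it and Klf2, Klf3 and Klf7 to restrain it.

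The libraries had nearly the same depth, between 14337225 and 14342154 reads, because the authors resampled them. At this depth 3 reads, the most that a count of 0 allows, correspond to 0.209 CPM, the count scaled to the size of the library. The treatment was evident from the Hedgehog targets. Gli1 had between 7 and 12 reads with DMSO and between 2522 and 3171 with purmorphamine, and Ptch1, the Hedgehog receptor, had between 504 and 532 against between 10296 and 11451. Hhip, a Hedgehog-binding protein, had at most 1 read with DMSO and between 139 and 197 with purmorphamine. All 10 mesenchymal markers examined were present, and their summed reads ranged from 367107 to 387548 with DMSO and from 352585 to 383062 with purmorphamine. Of these markers 5 rose, among them Pdgfra (log2 fold change 0.76), Thy1 (0.74) and Twist1 (0.65), 2 fell, among them Vim (-0.96), and 3 were not called. Leukocyte markers summed to between 56 and 60 reads with DMSO and between 55 and 76 with purmorphamine, and Ptprc had at most 1 read. Most of these reads were from Lyz2, with between 40 and 43 with DMSO and between 45 and 63 with purmorphamine. Cd68 had between 13 and 16 with DMSO and between 10 and 18 with purmorphamine, and neither gene was called. Nothing in the labels says that the libraries of a group came from separate cultures, so p-values measure the spread between these libraries, which may be technical.

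The sequence upstream of the genes was examined because members of this family can bind one another's promoters. RefSeq windows on GRCm38.p6 matched 8 of the 10 genes, and the 250 bases before each start site were searched on both strands. The windows of Klf4, the gene with the largest increase, of Klf2 and Klf15, which were lower with purmorphamine, and of Klf13, which hardly differed, are shown 5′ to 3′ on the strand of the gene. Capitals mark the GC box GGGCGGG, the CACCC element and, in Klf2, a MEF2 site, each in either orientation. The Klf4 window is chr4:55532476-55532725 (minus strand), that of Klf2 is chr8:72318812-72319032 (plus strand, ending where the first annotated exon begins), that of Klf15 is chr6:90462326-90462575 (plus strand) and that of Klf13 is chr7:63938916-63939165 (minus strand).
Klf4: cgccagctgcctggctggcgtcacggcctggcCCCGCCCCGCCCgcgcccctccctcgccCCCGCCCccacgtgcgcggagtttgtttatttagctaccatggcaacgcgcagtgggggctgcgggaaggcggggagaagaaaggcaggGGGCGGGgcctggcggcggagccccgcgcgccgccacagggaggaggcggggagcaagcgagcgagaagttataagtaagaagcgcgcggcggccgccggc
Klf2: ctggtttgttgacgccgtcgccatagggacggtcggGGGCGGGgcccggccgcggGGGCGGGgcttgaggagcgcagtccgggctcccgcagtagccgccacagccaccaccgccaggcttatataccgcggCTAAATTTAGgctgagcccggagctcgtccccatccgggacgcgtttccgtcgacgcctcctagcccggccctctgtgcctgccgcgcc
Klf15: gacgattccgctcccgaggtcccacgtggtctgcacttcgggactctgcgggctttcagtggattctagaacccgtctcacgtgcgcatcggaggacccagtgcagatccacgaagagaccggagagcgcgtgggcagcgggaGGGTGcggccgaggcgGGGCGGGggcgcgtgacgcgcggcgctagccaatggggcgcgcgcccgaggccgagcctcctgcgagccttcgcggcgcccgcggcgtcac
Klf13: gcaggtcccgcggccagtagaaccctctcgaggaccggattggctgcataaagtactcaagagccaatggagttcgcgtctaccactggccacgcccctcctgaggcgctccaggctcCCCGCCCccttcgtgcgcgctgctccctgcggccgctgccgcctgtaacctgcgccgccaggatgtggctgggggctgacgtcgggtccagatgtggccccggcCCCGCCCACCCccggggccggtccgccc

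The Klf4 window held 4 GC boxes, beginning 218, 213, 190 and 101 bases before the start site, of which the first and the second overlap, and it held no CACCC element. The Klf2 window held 2 GC boxes, 214 and 195 bases before the start site, and a MEF2 site 118 bases before it. Its CACCC element, 19 bases before the start site, lies outside the printed stretch, within an annotated exon. Klf15 had 1 CACCC element and 1 GC box, 107 and 91 bases before the start site. Klf13 had GC boxes 132 and 28 bases before the start site, the nearer of which overlaps a CACCC element. Among the 8 windows, 5 held a GC box and 6 a CACCC element, compared with 23.4% and 52.0% of all 32817 RefSeq windows. Bases in annotated exons were searched too. They numbered 133 in the window of Klf3, 102 in that of Klf7, 29 in that of Klf2 and 7 in that of Klf6. The MEF2 site, present in 1.69% of all windows, was found in that of Klf2 alone. None of the 8 windows held the Gli motif GACCACCCA (0.225% of all windows), the cAMP response element TGACGTCA (1.55%), TATAAA (12.4%), a CArG box (1.47%) or a glucocorticoid response element (0.387%). The GC content of the 8 windows ranged from 59.2% to 78.4%, with a median of 71.4%, compared with a median of 52.4% for all windows. A match is a description of the letters and does not show that a factor binds.

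Klf4, a factor of epithelial and vascular differentiation that is also used to reprogram somatic cells to pluripotency, had the largest difference of the 10 genes. Its counts (ENSMUSG00000003032, chromosome 4 from 55527143 to 55532466 on the minus strand in GRCm38) were 654, 650 and 657 reads in the DMSO libraries. With purmorphamine they were 4762, 4913, 4986 and 4950 reads. Every purmorphamine library was thus far above every DMSO library, and the libraries within each group were close together. The DMSO mean was 654 ± 3.51 reads (SD, n = 3) and the purmorphamine mean 4903 ± 98.5 (SD, n = 4), a ratio of 7.50. An SD of 3.51 is below the usual counting error at such counts, so it understates the spread to be expected. The log2 fold change from edgeR was 2.86, with a standard error (SE), derived from the F statistic, of 0.0496. Among all increased genes, 53 had a larger log2 fold change than Klf4, and of these only Ptch1 reached a purmorphamine mean as high as that of Klf4. In a bulk library, a change in the number of cells that express a gene and a change in RNA per cell cannot be told apart.

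**Figure D1:**
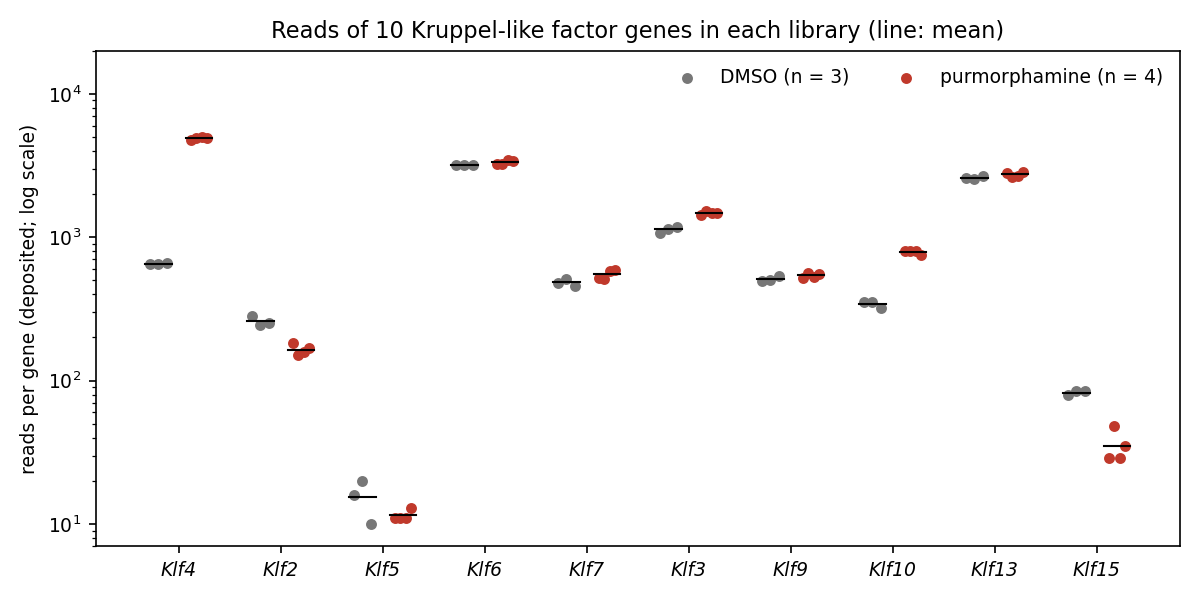
Deposited reads per gene (log scale) for the 10 Krüppel-like factor genes, with 1 point per library (gray, DMSO, n = 3; red, purmorphamine, n = 4) and a line at each group mean. Klf4 moved from 654 to 4903 reads, Klf10 and Klf3 were higher and Klf2 and Klf15 lower in every purmorphamine library, and Klf7, Klf9, Klf13 and Klf5 overlapped between the groups.

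The other activators were Klf2, Klf5, Klf6 and Klf7, and none had a difference as large as that of Klf4. Klf2 (chromosome 8 from 72319033 to 72321656), the paralogue best known from quiescent endothelium and T cells, had 284, 245 and 251 reads with DMSO. With purmorphamine it had 182, 151, 158 and 168 reads. Each purmorphamine library was below each DMSO library, with means of 260.0 ± 21 (SD, n = 3) and 165 ± 13.5 reads (SD, n = 4) and a log2 fold change of -0.70 (SE 0.0941). Klf4 and Klf2 thus differed in direction, although they act on overlapping targets in endothelium.

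Klf6, a broadly expressed activator, had the most reads per kb of the 10 genes with DMSO. Its reads were 3192, 3167 and 3193 with DMSO and 3235, 3253, 3452 and 3420 with purmorphamine. The deposited reads of the groups did not overlap, but the log2 fold change after TMM scaling was only 0.022 (SE 0.0450). Klf7, known for its role in neurons and as an inhibitor of adipogenesis, had 482, 515 and 460 reads with DMSO and 521, 511, 585 and 593 with purmorphamine. Its groups overlapped and its log2 fold change was 0.14 (SE 0.0717). Although Klf7 was below the threshold of an adjusted p of 0.2, it was not without DMSO replicate 2 or 4 or purmorphamine replicate 7 or 8 (adjusted p from 0.223 to 0.329 in edgeR).

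Klf5, a factor of proliferating epithelium and smooth muscle that induces Pparg in adipocyte precursors, was the least abundant member. It had 16, 20 and 10 reads with DMSO and 11, 11, 11 and 13 with purmorphamine. The groups overlapped, and a log2 fold change of -0.46 (SE 0.294) on so few reads was within their spread. Without DMSO replicate 4, its log2 fold change was -0.68 and its adjusted p in edgeR was 0.0889, under the threshold. Its side of the threshold thus depended on that library.

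Klf3 represses transcription through CtBP. It had 1072, 1149 and 1180 reads with DMSO and 1441, 1527, 1466 and 1468 with purmorphamine. All purmorphamine libraries were above all DMSO libraries, with means of 1134 ± 55.6 (SD, n = 3) and 1476 ± 36.5 reads (SD, n = 4). The log2 fold change was 0.33 (SE 0.0495), a ratio of the means of 1.30.

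Among the members that bind Sin3a, Klf10 stood apart from Klf9 and Klf13. Klf10, also named TGF-beta inducible early gene 1, had 356, 356 and 319 reads with DMSO and 807, 801, 805 and 755 with purmorphamine. The groups were well separated, with a DMSO mean of 344 ± 21.4 reads (SD, n = 3), a purmorphamine mean of 792 ± 24.8 (SD, n = 4), a ratio of 2.30 and a log2 fold change of 1.16 (SE 0.0638). Klf9, which responds to glucocorticoid and thyroid hormone in many cells, had 495, 500 and 533 reads with DMSO and 523, 559, 528 and 556 with purmorphamine. Klf13, known from T cells and heart, had 2601, 2564 and 2656 reads with DMSO and 2810, 2652, 2663 and 2854 with purmorphamine. For both genes the groups overlapped, and the log2 fold changes were 0.041 (SE 0.0611) for Klf9 and 0.027 (SE 0.0457) for Klf13. Klf13 had an adjusted p of 0.187 with library totals in place of TMM, under the threshold.

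Klf15, a glucocorticoid-responsive regulator of metabolism and adipocyte differentiation, had the largest decrease of the 10 genes. Its reads were 79, 84 and 84 with DMSO and 29, 48, 29 and 35 with purmorphamine. No purmorphamine library reached the lowest DMSO library. The DMSO mean was 82.3 ± 2.89 reads (SD, n = 3) and the purmorphamine mean 35.3 ± 8.96 (SD, n = 4), with a ratio of 0.428 and a log2 fold change of -1.27 (SE 0.170). Leaving out each library in turn gave log2 fold changes from -1.44 to -1.18.

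All 10 genes passed the filter on low counts. At an adjusted p under 0.2, 6 of them were called, 4 higher with purmorphamine (Klf3, Klf4, Klf7 and Klf10) and 2 lower (Klf2 and Klf15). Across the 12388 genes tested, 62.5% were called, 31.4% higher and 31.1% lower. The groups did not overlap in deposited reads for 6 of the 10 genes and for 49.5% of the genes tested. Since the genes were chosen on this contrast, nothing is read from their counts beside these shares. The median log2 fold change was 0.034 over the 10 genes, 0.027 over the 9 paralogues of Klf4 and 0.0038 over all genes tested.

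The levels of the genes were compared with each other as CPM after TMM scaling, divided by the kb of exon in GENCODE M21 (CPM per kb). The authors may have counted on other gene models, since the submitters' processing notes name mm9, so that levels, ranks and shares between genes depend on these lengths. With DMSO, the level of Klf6 was 51.6 ± 0.454 CPM per kb (SD, n = 3), followed by Klf13 at 24.6 ± 0.537 and Klf4 at 15.2 ± 0.146. Below these lay Klf2 at 10.0 ± 0.825, Klf9 at 7.52 ± 0.327, Klf3 at 7.17 ± 0.355, Klf10 at 5.85 ± 0.346, Klf7 at 4.25 ± 0.224, Klf15 at 2.10 ± 0.0721 and Klf5 at 0.209 ± 0.0680. Of the neighbours in this order, Klf9 and Klf3 alone overlapped. With purmorphamine, Klf4 was first at 111 ± 2.48 CPM per kb (SD, n = 4), above Klf6 at 52.3 ± 1.94 and Klf13 at 25.1 ± 0.905. The rank of Klf3 depends on the length used, since with the longest transcript its DMSO level was 15.4 CPM per kb, close to the 15.3 of Klf4. Klf4 was below Klf6 and Klf13 with DMSO and above both with purmorphamine with either length.

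Among the 10 genes, the balance therefore moved toward Klf4, which had been chosen for its large increase. Other Krüppel-like factors are not in the sums and shares below. The summed level of the 10 genes was between 127 and 129 CPM per kb with DMSO and between 225 and 234 with purmorphamine. Without Klf4, the sum was between 112 and 114 with DMSO and between 116 and 121 with purmorphamine. Klf4 made up between 11.8% and 11.9% of the summed level with DMSO and between 47.7% and 48.7% with purmorphamine. The share of Klf6 went from between 40.1% and 40.2% to between 22.4% and 23.3%, although its own level hardly differed.

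**Figure D2:**
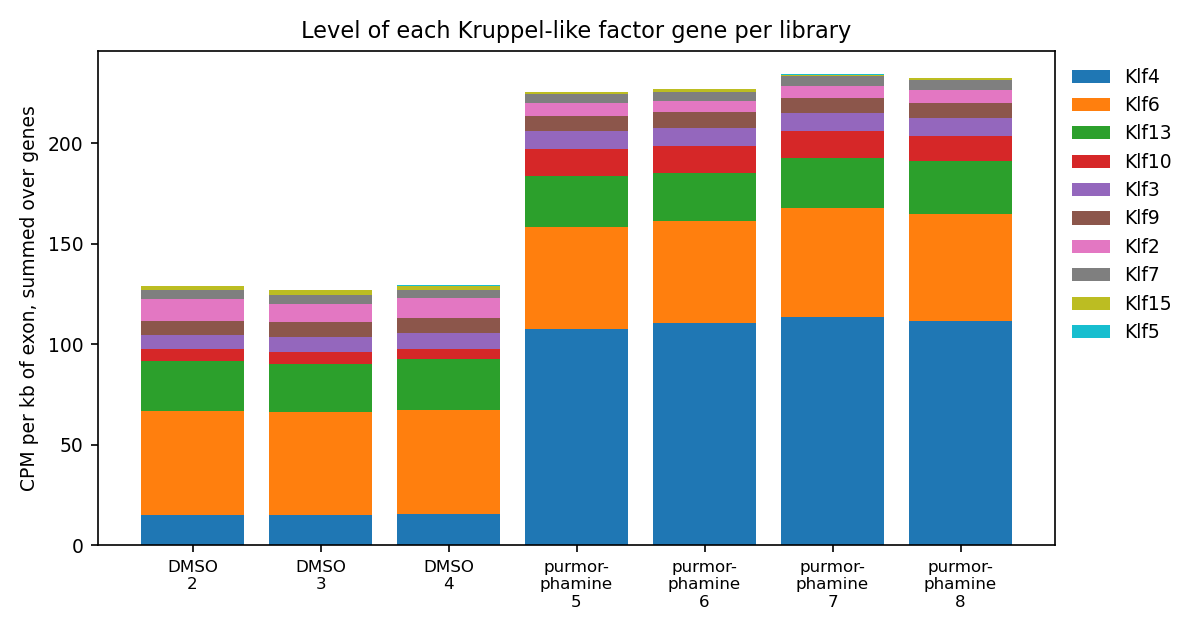
Level of each of the 10 genes in each library, stacked, in CPM per kb of exon (the height of a bar is the summed level). The DMSO bars reach between 127 and 129 and the purmorphamine bars between 225 and 234, and the added height is nearly all Klf4.

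Ratios of Klf4 to a paralogue within the same library do not depend on the scaling between libraries. Reads per kb of Klf4 were between 0.295 and 0.296 times those of Klf6 with DMSO and between 2.08 and 2.18 times with purmorphamine. Relative to Klf13 the ratio went from between 0.611 and 0.626 to between 4.19 and 4.62. Klf4 was thus below both genes in every DMSO library and above both in every purmorphamine library. Relative to Klf10, the paralogue that also had a large increase, the ratio went from at most 2.82 with DMSO to between 8.09 and 8.99 with purmorphamine. Relative to Klf2 it went from between 1.39 and 1.61 to between 15.8 and 19.7, and relative to Klf15 from between 7.08 and 7.58 to between 93.7 and 157. For all 9 paralogues the ratio was higher in every purmorphamine library than in any DMSO library. The log2 change lay between 1.70 for Klf10 and 4.16 for Klf15. This direction followed from the choice of Klf4 for its increase, since no paralogue rose as much, and is not a separate result.

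**Figure D3:**
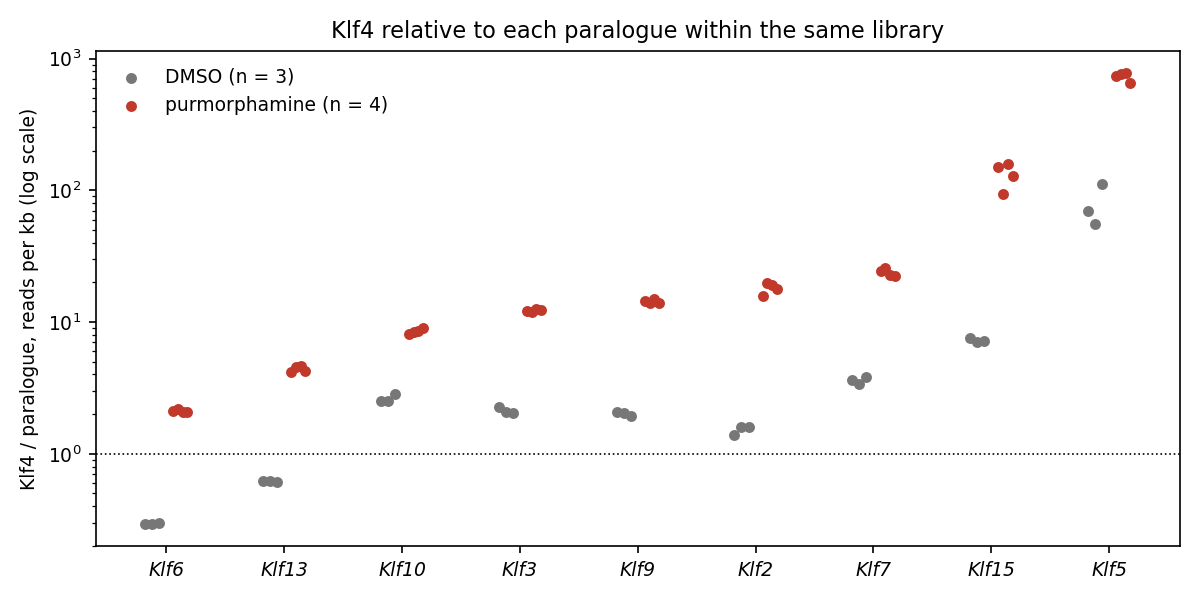
Reads per kb of Klf4 divided by those of each paralogue in the same library (log scale), with 1 point per library (gray, DMSO, n = 3; red, purmorphamine, n = 4) and a dotted line at equal levels. Klf4 crosses the line against Klf6 and Klf13. The groups are separate for all 9 paralogues, which follows from the choice of Klf4 for its increase.

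The pattern of Klf4 over the 7 libraries was compared with that of 10672 genes that averaged 50 or more reads, by Pearson's r of log2 CPM. The 5 genes most like Klf4 were Sgms2, a sphingomyelin synthase, Flrt2, a transmembrane adhesion protein, Magi1, a scaffold protein of cell junctions, Steap4, a metalloreductase, and Ptch1. Their r lay between 0.9995 for Ptch1 and 0.99975 for Sgms2. Sgms2 had between 180 and 192 reads with DMSO and between 1278 and 1356 with purmorphamine (log2 fold change 2.75, SE 0.0636). Since all 7 points fall into the groups of the treatment, a high r needs little more than a difference between them, and 239 genes had r above 0.99 and 228 below -0.99. Among the paralogues, r with Klf4 was 0.995 for Klf10 and 0.967 for Klf3. It was 0.627 for Klf7, 0.427 for Klf9, 0.325 for Klf13 and 0.298 for Klf6. Klf15 had r of -0.947 and Klf2 of -0.964, and Klf5 had too few reads to be included.

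The Krüppel-like factor genes outside the 10 were tested with edgeR. Klf11, the closest relative of Klf10 and also a partner of Sin3a, had 359, 332 and 350 reads with DMSO and 584, 622, 593 and 580 with purmorphamine, and it rose (log2 fold change 0.73, SE 0.0641, adjusted p = 6.03e-08 in edgeR). Klf8 and Klf12 bind CtBP as Klf3 does. Klf12 rose from between 1075 and 1150 to between 1415 and 1510 reads (log2 fold change 0.35, SE 0.0487, adjusted p = 1.69e-05 in edgeR), close to the 0.33 of Klf3. Klf8 rose from 68, 99 and 57 to 106, 111, 122 and 105 reads (log2 fold change 0.52, SE 0.157, adjusted p = 0.0115 in edgeR). Klf16, another Sin3a-binding member, had 257, 251 and 289 reads with DMSO and 269, 288, 258 and 281 with purmorphamine, and its log2 fold change of -0.0028 (adjusted p = 0.984 in edgeR) changed sign under other settings. Klf1 and Klf17, factors of erythroid and germ cells, had at most 2 and 1 reads in any library. Among the Sp factors, Sp1 rose slightly (log2 fold change 0.13, adjusted p = 0.0412 in edgeR), and the values of Sp2, Sp3 and Sp4 were -0.047, 0.070 and 0.12 with none of them called.

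**Figure D4:**
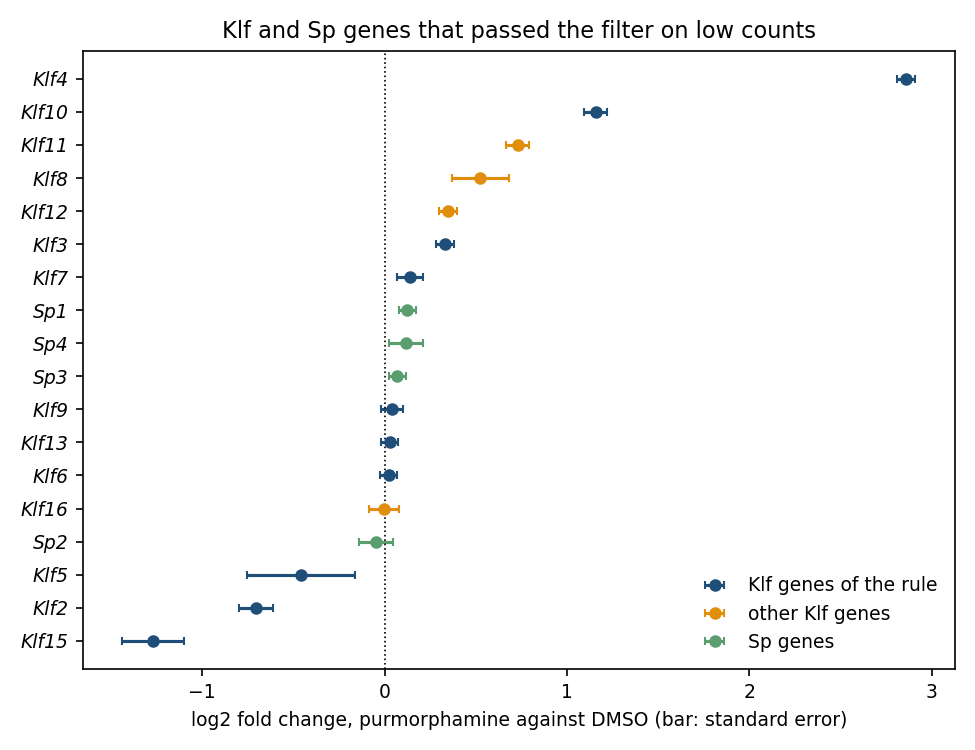
Log2 fold change, purmorphamine against DMSO, of the 18 Krüppel-like factor and Sp genes tested (blue, the 10 genes; orange, other Krüppel-like factors; green, Sp factors), with bars of 1 standard error. Klf4 at 2.86 and Klf10 at 1.16 lie above all others, Klf2 at -0.70 and Klf15 at -1.27 below, and most of the Sp factors near 0.

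The genes through which these factors act were then counted. Across the 12388 genes tested, 31.4% were called higher and 31.1% lower. The counts of this and the later lists stand beside these shares and are not evidence that a list differs. Among 11 corepressors and coactivators, 1 rose, 5 fell and 5 were not called, with a median log2 fold change of -0.043. Hdac2, a histone deacetylase in Sin3 complexes, had a log2 fold change of -0.32 (adjusted p = 0.000168 in edgeR), and of both CtBP genes, whose products bind Klf3, Ctbp2 had -0.18 (adjusted p = 0.0311 in edgeR) and Ctbp1 0.036, which was not called. Among 9 enzymes that degrade or modify Krüppel-like factors, 3 rose and 3 fell. Pias1, a SUMO ligase, rose (log2 fold change 0.58, SE 0.0511, adjusted p = 6.02e-08 in edgeR). Of the Mek5-Erk5-Mef2 pathway, which drives Klf2 and Klf4 in endothelium, 4 of 7 genes tested rose and none fell, Mef2d the most (log2 fold change 0.52, adjusted p = 6.67e-07 in edgeR). Map2k5 and Mapk7 encode Mek5 and Erk5. Their log2 fold changes were -0.018 and 0.13, and they were not called (adjusted p = 0.861 and 0.243 in edgeR). The part of this pathway in the values of Klf2 and Klf4 was not tested.

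Lists of genes that respond to the same signals as single members held genes that rose and genes that fell. The part of these signals in the values of the members was not tested. Klf15 and Klf9 respond to glucocorticoid in many cells, and of 7 genes tested in the list of the glucocorticoid receptor and its targets, 4 rose, 1 fell and 2 were not called. Tsc22d3 (log2 fold change 1.21) and the receptor gene Nr3c1 (0.96) rose, and Sgk1 (-1.15) fell. Klf10 is an early target of TGF-beta, and of 9 such targets 3 rose, among them Ctgf (1.56), and 6 fell, among them Tgfbi (-2.10). Klf4, Klf6 and Klf10 can behave as immediate early genes, and of 13 such genes tested 4 rose, 7 fell and 2 were not called. Fos (-1.15) and Btg2 (-0.89) fell and Ier5 (0.66) and Fosl2 (0.53) rose, each past the threshold in edgeR.

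Genes known as targets of these factors moved in both directions. The lists of targets do not state which genes are activated and which repressed, so rises and falls do not give the direction of regulation. Of 6 endothelial targets of Klf2 and Klf4 tested, 2 rose and 4 fell. Thbd, which encodes thrombomodulin, rose from between 1331 and 1455 to between 5658 and 6536 reads (log2 fold change 2.05, SE 0.0590, adjusted p = 5.87e-14 in edgeR). Edn1 (-2.09), Ccl2 (-1.83) and S1pr1 (-0.85) fell, and Tek (1.25) rose. Of the 6 endothelial markers in the table, Tek is also one of these targets, with between 770 and 816 reads with DMSO and between 1870 and 2124 with purmorphamine, and Pecam1, Kdr, Tie1 and Emcn had at most 5 reads in any library. The summed reads of the markers were between 781 and 821 with DMSO and between 1898 and 2154 with purmorphamine. Cdh5 had 0 reads in each DMSO library and between 21 and 26 with purmorphamine, at least 7.75-fold higher against 3 reads per library. Cdh1, an epithelial cadherin that Klf4 is known to activate, had between 14 and 21 reads with DMSO and between 110 and 135 with purmorphamine (log2 fold change 2.70, adjusted p = 1.14e-09 in edgeR), while Krt8 and Krt14 had at most 1 read. The part of other cell types in the values of Klf4 and Klf2 was not tested.

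Of 6 genes tested in the adipogenic list, 5 fell and 1 was not called, with a median log2 fold change of -0.58. The largest decreases were in Fabp4, a lipid carrier of adipocytes (-1.39), and Dlk1 (-1.10). Dlk1 marks preadipocytes rather than adipocytes, but it is part of this count and median. The transcription factors of this list had values of -0.61 (Cebpd), -0.55 (Cebpa), -0.25 (Pparg) and 0.050 (Cebpb, not called). Of the members named above as promoting adipogenesis, Klf4 was higher, Klf15 was lower and Klf5, Klf6, Klf9 and Klf13 were not called. Of those that restrain it, Klf2 was lower and Klf3 and Klf7 were higher. Of 6 cell cycle targets, 3 rose and 3 fell, with Ccnd1, which encodes cyclin D1, at 1.68 and Myc at -1.35. As above, the list does not state which of them are activated or repressed. Myc was also the only tested gene among the reprogramming partners of Klf4, since Sox2, Nanog and Esrrb had at most 13 reads in any library. The lists were drawn up with results of these data known, and with 62.5% of all genes called, their counts are not evidence that a list differs from the rest.

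**Figure D5:**
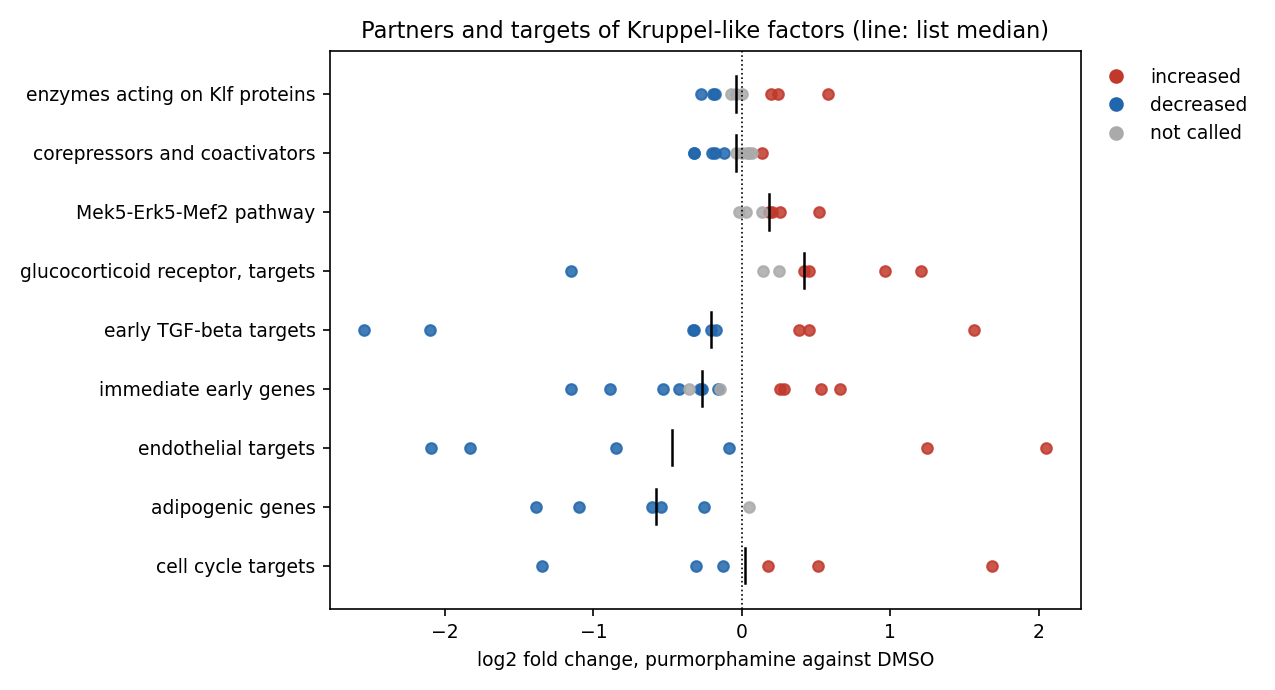
Log2 fold change, purmorphamine against DMSO, of each tested gene in 9 lists of partners and targets of Krüppel-like factors (red, increased; blue, decreased; gray, not called), with a line at the median of each list. The medians run from -0.58 for adipogenic genes to 0.42 for the glucocorticoid receptor and its targets, and most lists have genes on both sides of 0.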

How the data were processed

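Stranded libraries of total RNA depleted of ribosomal RNA were sequenced as single 100-base reads. The authors resampled the reads to equal numbers and deposited counts of sense-strand reads per gene, which they tested with limma-voom. The submitters' processing notes name STAR 2.5.3a and mm9. The counts were used as deposited, and samples were grouped by their labels. Genes that passed edgeR's filterByExpr (minimum count 10, total 15) were scaled by TMM and tested with edgeR 4.0.16 (quasi-likelihood, R 4.3.3, Benjamini-Hochberg adjustment), and called at an adjusted p under 0.2, the FDR of the study. Positions and exon lengths were from GENCODE M21 (GRCm38), which matched 17632 genes by Ensembl identifier. Coordinates in the deposited table were left aside. Each SE is the absolute log2 fold change divided by the square root of the F statistic of edgeR. Library totals lay between 14337225 and 14342154 reads, and limits from a count of 0 cover counting error only.

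The 10 genes and all lists were chosen with earlier results of these data known. Named were all Krüppel-like factors, in each further list genes called with at least a 1.5-fold change (up to 4 by size), Gli1, Ptch1, 4 adipogenic factors by value, and the 5 genes most like Klf4. Hdac2, Ctbp1, Ctbp2, Pias1, Map2k5, Mapk7, Mef2d, Fosl2, S1pr1, the Sp factors and the genes given only as near 0 were named after their values were seen. So were Cd68 and Lyz2. Of the genes this rule picks, 1 is not reported here. Alternatives were library totals, DESeq2 1.42.0, limma-voom (limma 3.58.1), other filters, a 1.5-fold threshold, ratios of deposited counts and each library left out. The length of the longest transcript was added after the data had been seen. The edgeR calculation was tested on simulated data in which few genes differed, and by larger amounts than most called genes here. Scaling with as many changed genes as in these data was not tested.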

Additional observations from a re-analysis of the deposited data

Results flagged for a closer look

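Of 50 named genes examined, 2 had 1 purmorphamine library far from the other 3. Chance gives such a gap in about 1 of 20 groups. For Klf5, 1 library held 13 reads and the others 11 each, and its gap to the nearest was 0.932 of the range after scaling. For Sgms2, 1 library held 1356 reads and the others between 1278 and 1290, and the gap was 0.891 of the range.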

How the results depend on the processing

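No paired analysis was possible because no replicate number occurs in both groups. Leaving out each library in turn gave log2 fold changes of 2.85 to 2.88 for Klf4, medians of 0.014 to 0.047 for its 9 paralogues, 4 to 6 calls among the other Krüppel-like and Sp factors, and 3500 to 3961 increased and 3374 to 3793 decreased genes. With library totals in place of TMM, and as the ratio of the mean deposited reads, Klf4 was at 2.91, and the paralogue median was 0.075 and 0.074. Requiring a 1.5-fold change left 977 increased and 936 decreased genes and 1 call among the other Krüppel-like and Sp factors, by construction. The log2 fold change of Klf16 turned positive with library totals (0.045), without a filter (0.0027) and with at least 10 reads in every library (0.0011), and ran from -0.046 to 0.068 with libraries left out. That of Cebpb, 0.050, ran from -0.0022 without DMSO replicate 2 to 0.14. The causes were not tested. Between 5 and 7 of the 10 genes were called across fits and libraries left out, with changes of side in Klf5, Klf7 and Klf13 alone. At an adjusted p under 0.05, 5 were called, and with the 1.5-fold threshold 4, without Klf3 and Klf7. Low counts limit Klf5 and Klf8.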

Other observations

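Neighbours of Klf4 on chromosome 4 were looked up after results were known, within a fixed distance and without regard to their values. Only Rad23b and Zfp462, both at lower coordinates, had enough reads to be tested. Rad23b, 134906 bases away, had means of 3526 reads with DMSO and 3425 with purmorphamine (log2 fold change -0.089, adjusted p = 0.128 in edgeR, under the threshold of 0.2), and Zfp462, 443580 bases away, had 800 and 838.5 (0.021, adjusted p = 0.791 in edgeR). The nearest gene, Gm12511, 30799 bases away at higher coordinates, had means of 0 and 0.25 reads, and the other two on that side had at most 0.75.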
